A study of Rattus norvegicus with 12 samples.

Results

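*Atp2a2* (ENSRNOG00000001285) encodes SERCA2, the calcium pump of the sarcoplasmic reticulum, and its transcript level was followed across the 12 RNA-seq libraries of the series. It is 1 gene of 15920 in the deposited table, picked out by its identifier, and it was chosen with earlier results of these data known. Its mean over the 12 libraries was 103035 normalized counts, where a minimum of 1000 had been asked for. The cells were NRVM, primary ventricular myocytes of Sprague Dawley rat pups aged 2 to 3 days, cultured without serum for 48 h before treatment. All 4 groups of 3 libraries shared this culture and an exposure to BrdU against dividing non-myocytes. The baseline group received vehicle only, the PE group phenylephrine at 100 µM, an agonist of α1-adrenergic receptors that makes these cells grow, the THZ1 alone group the CDK7, CDK12 and CDK13 inhibitor THZ1 at 10 nM, and the PE + THZ1 group both agents at these doses. By the study's general protocol for inhibitors, cells met the inhibitor first and PE was added afterwards, so that the PE + THZ1 group is one of pretreatment with THZ1. The sample labels give 48 h of treatment, as do the study's methods for PE ahead of mRNA measurements, whereas the headers of the 6 columns with PE, alone or with THZ1, state 24 h. Nothing in the labels says whether replicates were separate cell preparations, so p-values measure the spread between these libraries, which may be technical. The table pairs no identifier with a symbol, and 0 of its identifiers were found in the gene table used here. The name *Atp2a2* rests on the identifier alone, myocyte and non-myocyte markers were not examined, and neither were the partners of the pump.

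With each heartbeat, calcium that enters through L-type channels releases more calcium from the sarcoplasmic reticulum through the ryanodine receptor, and the cell relaxes when SERCA2 pumps it back into that store. Phospholamban holds the pump in check until it is phosphorylated. A low SERCA2 level and slow calcium reuptake are textbook features of hypertrophied and failing heart muscle. Alternative splicing at the end of the transcript gives the muscle form SERCA2a and the widespread form SERCA2b, and the values here are per gene, so that both forms are counted together.

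The start of the gene is shown because the agents compared act on signalling to transcription and on the kinases of RNA polymerase II, although no binding or polymerase data were analysed here. RefSeq places it on the plus strand of chromosome 12 of the GRCr8 build, and the stretch below, chr12:39733269-39733568, runs from 250 bases before the annotated transcription start to 50 bases after it. Reads were counted on another build, rn5, to which these coordinates do not apply. Capitals mark every match, on either strand, to a GC box (GGGCGG), to a CCAAT box (those 5 letters) and to an E-box (CANNTG).
Atp2a2 promoter: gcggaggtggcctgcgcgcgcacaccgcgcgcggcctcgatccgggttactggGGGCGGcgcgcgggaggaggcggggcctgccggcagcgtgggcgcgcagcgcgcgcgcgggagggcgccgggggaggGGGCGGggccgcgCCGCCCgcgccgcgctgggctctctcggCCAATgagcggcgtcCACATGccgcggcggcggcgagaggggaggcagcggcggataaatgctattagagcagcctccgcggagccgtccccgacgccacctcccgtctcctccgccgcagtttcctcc
The GC content was 79%, against a median of 51.7% over 33469 promoters of the same length, and the stretch held 52 CpG dinucleotides against a median of 7. It had 3 GC boxes, starting at -197, -120 and -107 from the transcription start. Of all promoters, 33.1% held at least 1 and 8.97% held at least 3. The CCAAT box lies at -79, and 37.5% of promoters had this motif. There was 1 E-box, at -64, and 72.1% of promoters held an E-box. The letters TATAAA and the nuclear receptor half-site AGGTCA were not in this window on either strand, and they were found in 14.2% and 16.2% of promoters. No 2 of these matches overlap, and a match is a description of the letters only.

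*Atp2a2* was among the most abundant transcripts in every library. It ranked 19 of 15920 genes by normalized count in all 3 baseline libraries, 19 to 20 with THZ1 alone, 24 with PE + THZ1 and 30 to 32 with PE. These ranks are not corrected for transcript length. Between 81704 and 152185 reads fell on the gene per library, out of totals of 30458862 to 45885754 counted reads, so that counting error was at most 0.350% of a value and small beside the spread between libraries. At baseline the share of counted reads was 0.325% in replicate 1, with an exact binomial 95% interval of 0.323% to 0.327%, which covers counting error only. Baseline replicate 2 stood apart from the other baseline libraries over all genes. The chi-square of its reads per gene was 48.3 against replicate 1 and 51.9 against replicate 3, where replicates 1 and 3 had 5.69 and the pairs of the other groups 1.99 to 8.09. Its 10 most abundant genes took 15.9% of normalized counts, against 22.1% and 21.9% in the other baseline libraries. Each comparison of *Atp2a2* with baseline is therefore also given without this library.

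The level was highest at baseline and lower in each treated group. The baseline libraries had 126078, 128578 and 130603 normalized counts. With THZ1 alone the values were 104276, 103614 and 106054. With PE they were 95337, 91969 and 86227. With PE + THZ1 they were 89832, 88594 and 85254. Baseline libraries lay above all others, those of THZ1 alone lay below baseline and above both groups with PE, and the PE and PE + THZ1 libraries overlapped. The group levels were 128420 ± 2267 (SD, n = 3) at baseline, 104648 ± 1262 with THZ1 alone, 91178 ± 4606 with PE and 87893 ± 2368 with PE + THZ1. As a share of the baseline mean, this is 81.5% with THZ1 alone, 71.0% with PE and 68.4% with PE + THZ1.

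**Figure D1:**
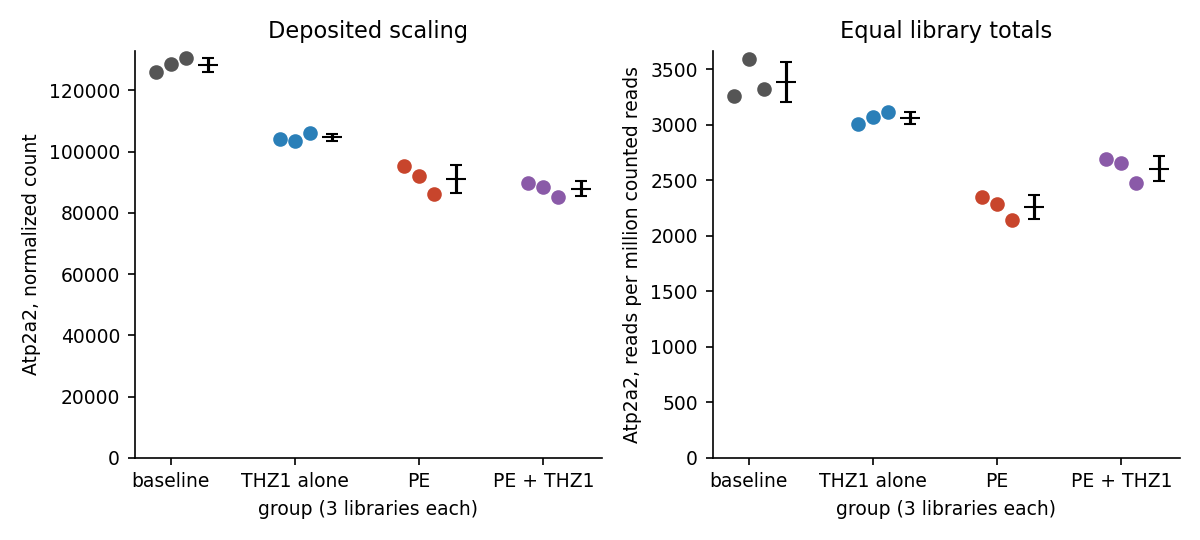
Level of *Atp2a2* in each of the 12 libraries, as normalized counts with the deposited scaling (left) and as CPM, scaled to equal library totals (right), with the group means and SD as horizontal and vertical black lines. On both scales the baseline and THZ1 alone libraries lie above those of the groups with PE, while PE + THZ1 overlaps PE on the left and lies above it on the right.

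PE lowered *Atp2a2* in cells without THZ1, which addresses the response of the pump gene to hypertrophic stimulation. The level fell by 29.1% against baseline, with a 95% interval from -34.0% to -23.7%, and was lower in 3 of 3 libraries than in any baseline library. The log2 change was -0.50 (SE 0.05, adjusted p = 2.2e-07, limma on log2(normalized count + 1) with Benjamini-Hochberg adjustment over 14312 genes). The agonist changed 55.2% of all genes tested at an adjusted p under 0.05, so a call by itself is common in this comparison. Without baseline replicate 2 the log2 change was -0.49 (adjusted p = 1.6e-08 from limma), with 60.7% of genes called. By size, 1681 of the 14312 genes, or 11.7%, had a more negative log2 change than *Atp2a2*. Among the 523 genes with a mean of at least 10000 normalized counts, 37 had one. In bulk RNA, fewer cells that express the gene and less of its RNA per cell cannot be told apart.

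THZ1 without PE also lowered *Atp2a2*. The level fell by 18.5% against baseline (95% interval -24.2% to -12.4%), with all 3 libraries below the lowest baseline library. The log2 change was -0.30 (SE 0.05, adjusted p = 8.9e-05 from limma), in a comparison in which 51.9% of genes were called. With libraries scaled to equal totals it was -0.14 (adjusted p = 0.042 from limma, 8164 genes called), a mean of 90.4% of baseline. The same scaling moved the median log2 change of all genes from 0.0013 to 0.15. Relative to that median, *Atp2a2* stood at -0.30 on either scale. Without baseline replicate 2 the log2 change was -0.29 on the deposited scale (adjusted p = 2.5e-05 from limma, 56.7% of genes called). It was -0.10 with equal totals (adjusted p = 0.073 from limma), which does not pass the threshold, where 64% of genes were called. A more negative change was found for 21.6% of all genes tested and for 141 of the 523 abundant genes. The gene stood between baseline and PE in this group. A comparison of PE with THZ1 alone, which was added once the order of the levels was known, gave a log2 difference of -0.20 (SE 0.05, adjusted p = 0.0018 from limma, 65.5% of genes called), with no overlap between the libraries. With equal totals this difference was -0.44, and with totals made equal after leaving out the 100 most abundant genes it was -0.36.

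Cells given THZ1 ahead of PE did not differ detectably in *Atp2a2* from cells given PE only, on the deposited scale. The fitted difference of PE + THZ1 from PE was -3.54%, with a 95% interval from -10.3% to 3.70%. The log2 difference was -0.05 (SE 0.05, adjusted p = 0.38 from limma), whereas 61.7% of genes were called in this comparison. Against baseline, *Atp2a2* fell by 31.6% with PE + THZ1 (log2 change -0.55, SE 0.05, adjusted p = 8.1e-08 from limma), and 54.1% of genes were called. Without baseline replicate 2 this change was also -0.55 (adjusted p = 4.7e-09 from limma), with 58.7% of genes called. PE + THZ1 and PE are therefore the neighbours in the order of levels that did not differ beyond their spread.

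In the presence of THZ1, the effect of PE on *Atp2a2* was smaller than in its absence. Between PE + THZ1 and THZ1 alone the gene fell by 16.0% (95% interval -21.9% to -9.72%), and the log2 change was -0.25 (SE 0.05, adjusted p = 0.0012 from limma) where 24.3% of genes were called. The difference between the PE effects with and without THZ1 was tested as the interaction, which was 0.24 on the log2 scale (SE 0.07, adjusted p = 0.013 from limma, 32.2% of genes called). Had both single effects multiplied, 74240 normalized counts would have been left with both agents, against a geometric mean of 87872 that was measured, a ratio of 1.18. The 95% interval put the measured level 6.84% to 31.1% above the product. The interaction of 76.8% of the tested genes was lower than that of *Atp2a2*. Without PE replicate 3, the PE library with the least *Atp2a2*, it was 0.20 (adjusted p = 0.047 from limma). Without baseline replicate 2 it was 0.24 (adjusted p = 0.0047 from limma, 42.7% of genes called).

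**Figure D2:**
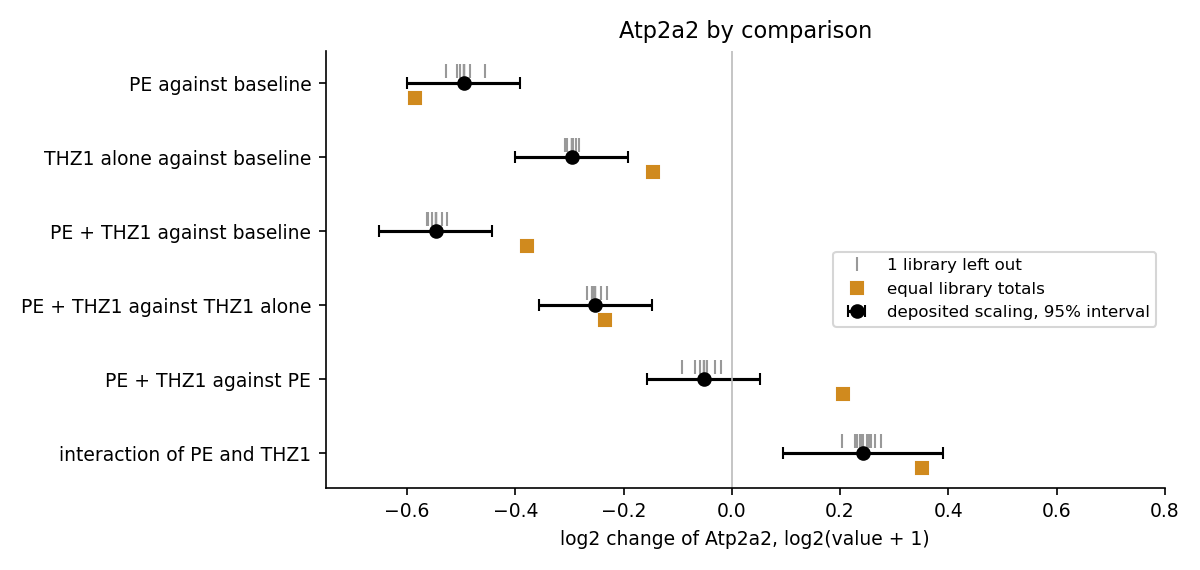
Log2 change of *Atp2a2* in 6 comparisons, with the 95% interval of the limma fit (black), the values with 1 library left out (grey ticks) and the values with libraries scaled to equal totals (squares). The intervals of 5 comparisons lie to 1 side of 0, and that of PE + THZ1 against PE, from -0.16 to 0.05, does not.

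An exact permutation test on the 6 libraries of each pair of groups, two-sided, cannot go below 0.1. This exact test gave p = 0.1 for the 4 planned pairs whose libraries do not overlap and p = 0.4 for PE + THZ1 against PE, or 0.125 and 0.4 after Benjamini-Hochberg adjustment over the 5 pairs.

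Whether PE + THZ1 differed from PE in *Atp2a2* depended on how the libraries were scaled. The summed normalized counts were 40.3 to 40.5 M with PE and 33.4 to 34.4 M with PE + THZ1, so that an equal normalized count is a larger share of a PE + THZ1 library. When scaled to equal library totals, as CPM, *Atp2a2* had 2353, 2282 and 2141 in the PE libraries. The PE + THZ1 libraries had 2686, 2652 and 2475. These values do not overlap, and PE + THZ1 was higher in all 3 libraries. With equal totals the log2 difference was 0.21 (SE 0.06, adjusted p = 0.0046 from limma). In that comparison 9970 genes were called, 77.2% of them higher, so a call is common there. The same scaling moved the median log2 difference of all genes from 0.0053 to 0.26. Relative to that median, *Atp2a2* stood at -0.06 on either scale, a gap that a rescaling of whole libraries leaves nearly fixed. The other comparisons kept their direction on this scale. The baseline level was 3388 ± 180 CPM (SD, n = 3), THZ1 alone 3062 ± 56.2, PE 2258 ± 108 and PE + THZ1 2605 ± 113, which is 90.4%, 66.7% and 76.9% of baseline for the treated groups. The interaction was then 0.35 (adjusted p = 0.0041 from limma, 4013 genes called), while the median interaction of all genes moved from -0.017 to 0.090. Relative to that median, the interaction of *Atp2a2* stood at 0.26 on either scale, which the rescaling likewise could hardly change. Baseline replicate 2 was the highest baseline library on this scale, with 3593 CPM against 3254 and 3317, whereas its normalized count lay between those of the other two. Without it and with equal totals, the log2 change against baseline was -0.54 for PE and -0.34 for PE + THZ1. The interaction was then 0.31 (adjusted p = 0.00057 from limma, 41.8% of genes called).

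**Figure D3:**
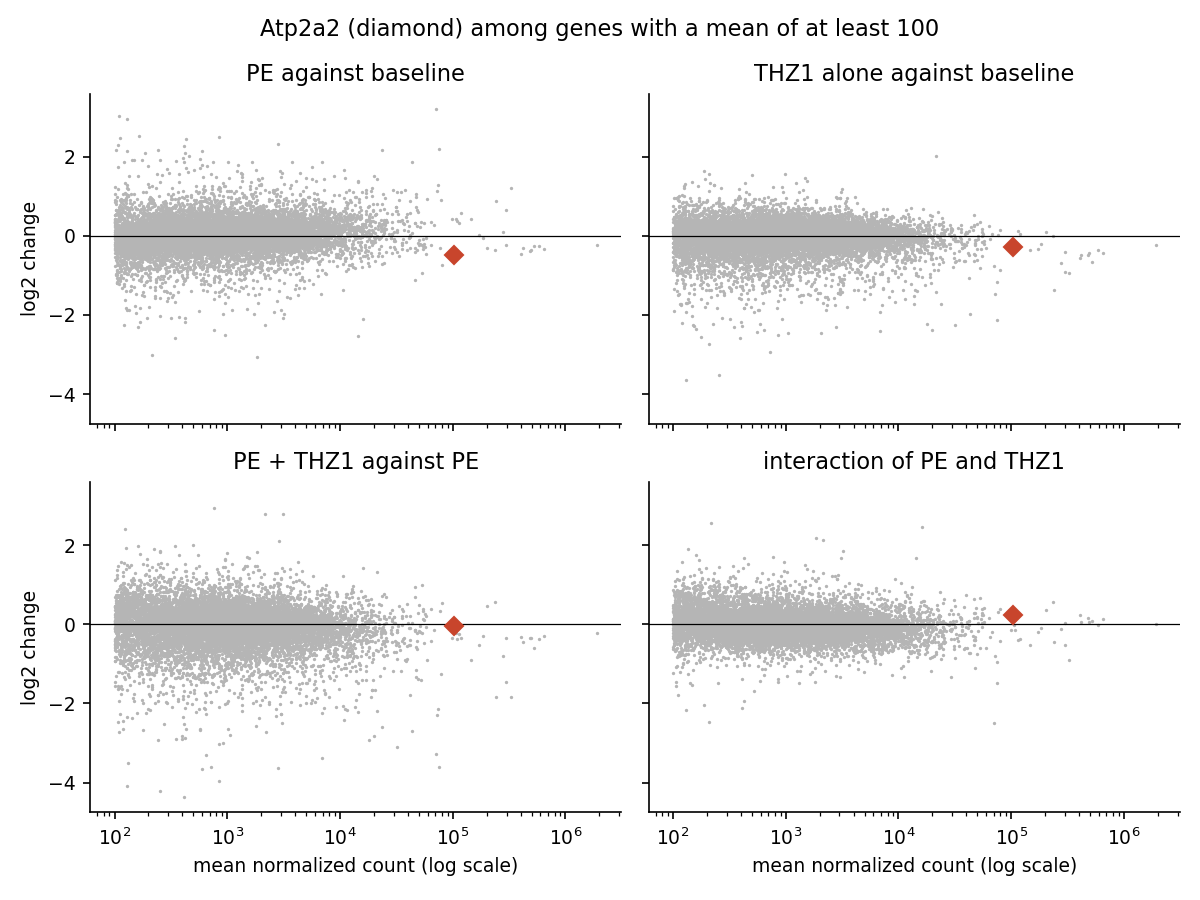
Log2 change against mean normalized count (log axis) for genes with a mean of at least 100, in 4 comparisons, with *Atp2a2* as a diamond. *Atp2a2* lies at the lower edge of the abundant genes for PE against baseline (-0.50), near 0 for PE + THZ1 against PE (-0.05) and above most genes for the interaction (0.24).

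Genes with the same profile as *Atp2a2* were sought over the 12 libraries. Among 5676 other genes with a mean of at least 1000 normalized counts, 65 had a Pearson r of at least 0.9 with it on the log2 scale and 13 had at least 0.95. These are descriptions over libraries that share their groups and their scaling. The 5 most like it had r from 0.973 to 0.982. The closest, ENSRNOG00000050090, had 2837 ± 5.04 normalized counts (SD, n = 3) at baseline, 1984 ± 99.9 with THZ1 alone, 1657 ± 119 with PE and 1432 ± 98.1 with PE + THZ1. The next, ENSRNOG00000018960 (r = 0.980), had 6190 ± 219, 4754 ± 357, 4168 ± 291 and 3802 ± 153 in the same order. All 5 stood highest at baseline, lower with THZ1 alone, lower again with PE and lowest with PE + THZ1. Each had a positive interaction, from 0.17 to 0.57 on the log2 scale. The 5 were chosen by their r with *Atp2a2* over these same libraries, so this likeness follows from the choice and is no separate support. The most opposed gene, ENSRNOG00000019048 (r = -0.972), stood at 7370 ± 544 at baseline, 9475 ± 207 with THZ1 alone, 10686 ± 304 with PE and 10947 ± 127 with PE + THZ1. With libraries scaled to equal totals, 0 of the 5 were again among the 5 most like *Atp2a2*, so this list holds for the deposited scaling only.

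**Figure D4:**
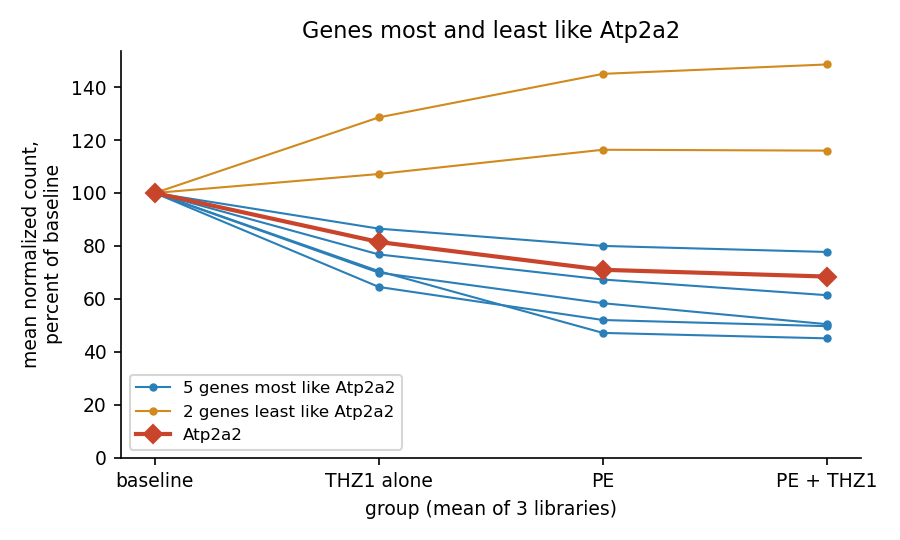
Group means of *Atp2a2*, of the 5 genes most like it and of the 2 least like it, as percent of each gene's baseline mean. *Atp2a2* runs from 81.5% with THZ1 alone to 71.0% with PE and 68.4% with PE + THZ1, the 5 genes go down in the same order of groups, and the other two go up from baseline.

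An unnamed column of the deposited table was taken as the authors' clustering. It places *Atp2a2*, and all 5 of these genes, in the cluster numbered 3, with 2355 genes or 14.8% of the total. The clustering used these same values, so what follows is a description. As z-scores of the normalized counts, *Atp2a2* had 1.51 ± 0.135 (SD, n = 3) at baseline, 0.0958 ± 0.0750 with THZ1 alone, -0.704 ± 0.274 with PE and -0.899 ± 0.141 with PE + THZ1. The mean over the cluster was 1.04 ± 0.483, -0.444 ± 0.111, 0.110 ± 0.0702 and -0.705 ± 0.108 in the same order. *Atp2a2* thus stood lower with PE than with THZ1 alone, whereas the cluster mean stood higher with PE than with THZ1 alone. The median log2 change of the 2195 cluster genes tested was -0.17 with PE and -0.35 with THZ1 alone, against -0.50 and -0.30 for *Atp2a2*. These cluster values were not computed without baseline replicate 2, and the cluster mean was most uneven at baseline (SD 0.483). How far that library sets the cluster's baseline level was not tested.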

How the data were processed

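RNA-seq of 12 NRVM libraries was analysed, 3 per group. Per the study's methods and the labels, the authors aligned single-end reads to rn5 with TopHat2 2.1.1, counted them per gene with HTSeq (htseq-count) using strand, and divided them by DESeq2 size factors. The deposited values are this signal, 1 normalized count per gene and library. All values (100%) were whole multiples, within 0.01 of a read, of what 1 read is worth, so reads were recovered. Size factors ran from 0.857 to 1.33. An unnamed column holds a whole number for each gene (1 to 6). It was taken as the authors' cluster number, since the paper describes 6 clusters.

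Genes with a mean of at least 10 were tested with limma (version 3.58.1, R 4.3.3) after adding a pseudocount of 1 and taking log2. All 12 libraries entered a common fit whose prior variance was a function of mean expression. Tests were two-sided with a threshold of 0.05 on the adjusted p. The fit was tried on simulated reads in which a small share of genes changed, in the PE group only. Far more genes were called in the real libraries, so that trial does not show how the fit performs on them. Genes to name were *Atp2a2*, the 5 most and 2 least like it (mean of at least 1000), and partners of the pump. Of these, identifiers without a symbol are printed only in part. Lists of partners and cell type markers were drawn up, but 0 of 15920 identifiers could be paired with a symbol, so no list was counted. Alternatives were edgeR 4.0.16 and DESeq2 1.42.0 on recovered reads, other pseudocounts, filters, scalings and fits, a replicate block, and each library left out. The gene, lists and tests were chosen with earlier results of these data known. Figures were drawn with matplotlib 3.10.9. Promoter sequences were searched in Python 3.11.15.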

Additional observations from a re-analysis of the deposited data

Results flagged for a closer look

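The effect of PE on *Atp2a2* differed between cells with and without THZ1 by a test of the difference itself. The interaction was 0.24 on the log2 scale (SE 0.07, adjusted p = 0.013 from limma, 32.2% of genes called). It ranged from 0.24 to 0.35 over the alternatives run on all 12 libraries and from 0.20 to 0.28 with 1 library left out. The direction was the same in both settings: 3 of 3 PE + THZ1 libraries lay below every THZ1 alone library, and 3 of 3 PE libraries below every baseline library. That separation shows a fall in each setting and not a difference in its size.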

How the results depend on the processing

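For *Atp2a2*, 177 of 181 values under alternatives kept their direction and their side of the threshold. Many of these could not change direction, so the count overstates how far the results were put to the test. Leaving out a library of a group not compared left the log2 change as it was. So did other filters, the fit without a trend, the fit on the compared groups only, the replicate block and size factors estimated anew. In 3 exceptions PE + THZ1 against PE turned to a higher level, with equal library totals (log2 difference 0.21 with and without baseline replicate 2) and when totals were made equal after leaving out the 100 top genes (0.096, adjusted p = 0.090 from limma). In the other, THZ1 alone against baseline was -0.10 (adjusted p = 0.073 from limma) with equal totals and without baseline replicate 2. The last 2 settings, size factors estimated anew and PE against THZ1 alone were added after the data were seen. Over the alternatives that left out no library of the groups compared, the log2 change against baseline was between -0.61 and -0.49 for PE, between -0.30 and -0.14 for THZ1 and between -0.56 and -0.38 for both agents. That of PE in the presence of THZ1 was between -0.26 and -0.23, and PE differed from THZ1 alone by -0.44 to -0.20. With 1 library left out in turn, the interaction ranged from 0.20 to 0.28 and PE + THZ1 against PE from -0.09 to -0.02. Of the 5 genes most like *Atp2a2*, 3 were found again with Spearman's rho and 0 with equal totals. Equal totals moved the share of higher genes among those called from 54.5% to 37.4% for PE against baseline, from 49.7% to 72.6% for THZ1 alone against baseline, from 49.4% to 74.3% for PE + THZ1 against baseline, from 49.3% to 77.2% for PE + THZ1 against PE, from 43.2% to 73.2% for the interaction and from 50.7% to 26.7% for PE against THZ1 alone. With the replicate block the interaction was 0.24 (adjusted p = 0.014 from limma) and no call on *Atp2a2* changed. Libraries of the same number in different groups deviated together with a mean r of 0.0330 over 18 pairs, of which 4 passed 0.1. For different numbers the mean r was -0.0168 over 36 pairs, of which 3 passed 0.1. Of the 12 libraries, 8 correlated best with their own number. These lean weakly to pairing, which the main fit left out. The planned counts of calcium cycling genes and the ratio to *Pln* could not be run, since 0 identifiers were matched.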

Other observations

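How even *Atp2a2* was between replicates depended on the scaling in the baseline group. With the deposited scaling its coefficient of variation was 1.77% at baseline, 1.21% with THZ1 alone, 5.05% with PE and 2.69% with PE + THZ1. With equal library totals, a scale added for this measure after the data were seen, it was 5.33%, 1.83%, 4.79% and 4.35% in the same order, so that PE was the most uneven group on the first scale and baseline on the second. Among the 523 genes with a mean of at least 10000 normalized counts, 86.0% of the others varied less than *Atp2a2* in the PE group with the deposited scaling and 84.3% with equal totals. At baseline these shares were 6.70% and 34.1%.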
